A study of Mus musculus with 2 samples.

Results

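The genes described here are the Hox genes of the mouse, the homeobox genes that lie in the Hoxa, Hoxb, Hoxc and Hoxd clusters. They were taken as every gene whose array symbol is Hox, a cluster letter and a number, which gave 39 genes of the 29608 gene names on the array. Of these, 11 belong to the Hoxa, 10 to the Hoxb, 9 to the Hoxc and 9 to the Hoxd cluster. The family was chosen by the measured difference of Hoxb9 between these arrays, so all differences below describe the contrast that picked the family, with no test. The study compared 661W, an immortalised mouse line labelled as photoreceptor cells, after 3 days in DMEM/F12 medium without choline and after 3 days in the same medium with choline. Each condition was measured once, on 1 single-colour Agilent array, so there is 1 choline-deficient and 1 choline-sufficient array and no replicate. The design text mentions RNA pooled over 4 dishes. The growth protocol of the line names fetal bovine serum, and whether the media with and without choline held it is not stated.

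Hox genes encode homeodomain transcription factors that give cells of the embryo their position along the head-to-tail axis. Within a cluster the genes stand in the order in which they act, from low-numbered genes at the 3' end, used towards the head, to high-numbered genes at the 5' end, used towards the tail and in the limbs. Genes of the same number in different clusters are paralogs. Polycomb complexes keep the clusters silent, Trithorax-type complexes keep them active, and retinoic acid and Cdx factors induce them in the embryo. The neural retina, which comes from the forebrain, lies ahead of the domain that Hox genes pattern. Cultured cells commonly keep the Hox pattern of their origin.

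A signal is given as a percentage of the 75th percentile of its own array, so that the arrays can be set side by side. Signals of different genes come from different probes and are not compared. They were only summed over marker lists, where bright probes weigh most. A gene counts as measured where a probe was well above background, by the scanner software's call, on both arrays. Differences are log2 values, choline-deficient minus choline-sufficient. Each ± gives the error that the scanner software assigns to a spot, carried over both arrays (median over all genes 0.20), which holds no variation between cultures. Of the 39 Hox genes, 14 were measured, 2 were well above background only on the choline-sufficient array, 0 only on the choline-deficient array and 23 on neither. The 14 are 35.9% of the family, where 66.9% of all genes of the array were measured. The 23 are 59.0% of the family, where the share over the whole array was 28.5%. The share of all genes seen only on the choline-sufficient array was 1.21%, and 3.35% were seen only on the choline-deficient array. Of the 14 measured genes 13 rest on 1 probe each, so few differences have a second probe beside them.

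Among the measured Hox genes Hoxa5, Hoxa6, Hoxa7 and Hoxb9 were lower by 2-fold or more without choline, and 0 were higher by that much. These 4 genes are 28.6% of the measured members, while over all 19818 measured genes 3.88% were lower and 7.67% higher by 2-fold or more. Nothing is read from this gap, since the contrast chose the family. At the smaller size of 1.5-fold, 6 members were lower and 0 higher, where 14.1% of all genes were lower and 14.8% higher. Of the 14 differences 13 were below 0, as were 57.4% of all differences. The median was -0.43 over the measured Hox genes and -0.10 over all genes. In RNA of a whole culture, fewer cells of a type and less RNA per cell cannot be told apart. Fibroblast and mesenchymal markers moved between the arrays as well, with 11 of 16 measured genes higher without choline and none lower by 2-fold or more, and their part in the Hox differences was not tested. Among all genes at least 2-fold apart 66.4% were higher, which became 53.7% with scaling to the array medians and 85.6% with scaling to 5 bright spike-in probes. Against the 75th percentile, the first of these scalings shifts every gene by -0.12 and the second by 0.27, and the Hox median became -0.55 and -0.16. The median of all genes became -0.22 and 0.18, and its gap to the Hox median is the same by construction.

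**Figure D1:**
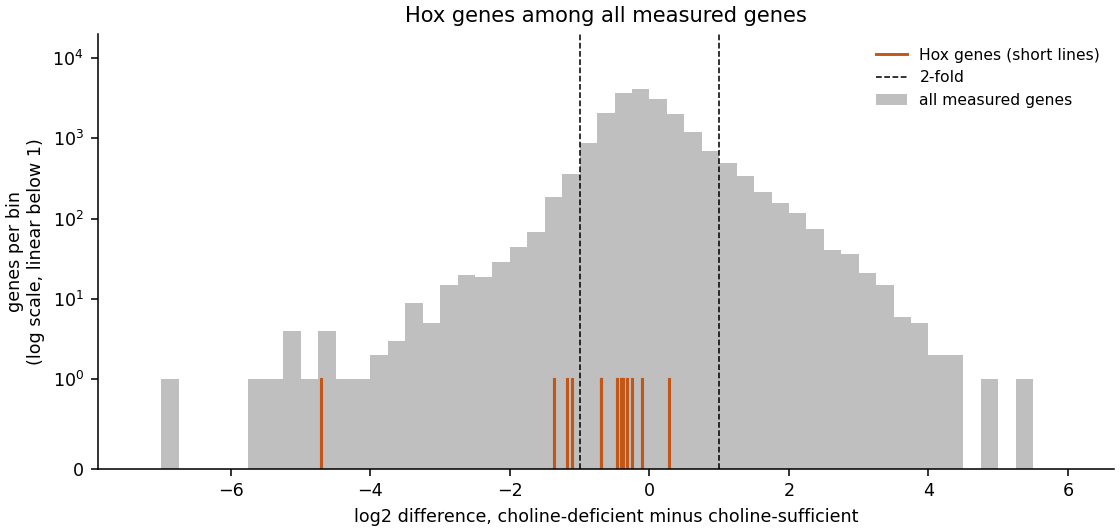
Number of all 19818 measured genes by log2 difference, choline-deficient minus choline-sufficient, in bins of 0.25 (grey bars, logarithmic count axis that is linear below 1), with the 14 measured Hox genes as short orange lines and 2-fold as dashed lines. Hox lines lie between -4.71 and 0.28, with Hoxb9 far to the left of the other 13.

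The Hoxa cluster was the most widely detected, with 8 of its 11 genes measured. Hoxa2, Hoxa3 and Hoxa4 differed by less than 2-fold. Hoxa2, a selector gene of the pharyngeal arches, had 0.880% without choline, against 1.42% with choline (-0.69 ± 0.24). Hoxa3, needed for thymus and parathyroid formation, had 4.03% and 5.06% (-0.33 ± 0.21), and Hoxa4, a gene of the neck vertebrae, had 5.99% and 6.45% (-0.11 ± 0.20), in each pair without and then with choline. All 3 were lower without choline, and the difference of Hoxa4 was smaller than its error. The measured Hoxa3 probe shares a run of 40 of its 60 bases, on the same or opposite strand, with a probe of another gene. That is the longest run among the measured Hox probes, and whether the signal is of Hoxa3 alone was not tested. A second Hoxa3 probe, for another transcript, was well above background only on the choline-sufficient array.

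The next 3 genes were lower together. Hoxa5, a regulator of lung and neck-to-thorax development, had 10.1% on the choline-deficient array and 22.9% on the choline-sufficient array, 2.27-fold lower (-1.18 ± 0.20). Hoxa6, which acts on thoracic vertebrae, had 1.64% without choline and 3.57% with choline, 2.17-fold lower (-1.12 ± 0.21). Hoxa7, another gene of the thoracic region, had 25.0% without choline and 64.5% with choline, 2.58-fold lower (-1.37 ± 0.20). The 3 differences lay within 0.25 of each other, which is below the error of such a comparison. Their probes span 13.6 kb on the minus strand of mm9 chr6:52152049-52165685. The pattern ended at Hoxa9, a gene of blood stem cells and of several leukaemias. Its 2 probes had 2.37% and 0.540% without choline, against 2.35% and 0.369% with choline, with differences of 0.01 and 0.55 and a mean of 0.28 ± 0.29. Hoxa10, Hoxa11 and Hoxa13, genes of the limb and the genital tract, were well above background on neither array. For Hoxa11 this held for 10 of 10 spots on each array.

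A step between neighbouring genes does not depend on a constant that scales 1 array to the other. From Hoxa4 to Hoxa5 the difference dropped by 1.07 ± 0.29, and from Hoxa7 to Hoxa9 it moved back up by 1.65 ± 0.36. Over the 9 settings that measured both genes, these steps ran from -1.07 to -0.80 and from 1.13 to 1.65. The steps inside the 3 genes were 0.06 ± 0.29 and -0.25 ± 0.29, and those from Hoxa2 to Hoxa3 and from Hoxa3 to Hoxa4 were 0.36 ± 0.32 and 0.22 ± 0.29. Both edges were picked from these same differences, so the sizes of the steps are a description.

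The promoters of the 3 lower genes and of the neighbour Hoxa9 are shown because these genes adjoin and differ in their response. Each runs from 250 bases before to 50 bases after the RefSeq start site on GRCm38.p6, minus strand, read 5' to 3', with CpG dinucleotides in capitals. Hoxa5 is chr6:52204538-52204837, Hoxa6 is chr6:52208623-52208922, Hoxa7 is chr6:52218524-52218823 and Hoxa9 is chr6:52227321-52227620.
Hoxa5: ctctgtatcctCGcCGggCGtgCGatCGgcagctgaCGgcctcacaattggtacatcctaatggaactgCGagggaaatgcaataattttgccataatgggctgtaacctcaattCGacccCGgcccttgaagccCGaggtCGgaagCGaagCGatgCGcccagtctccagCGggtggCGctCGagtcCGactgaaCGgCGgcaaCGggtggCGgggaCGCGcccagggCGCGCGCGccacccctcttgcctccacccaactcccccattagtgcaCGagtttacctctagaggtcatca
Hoxa6: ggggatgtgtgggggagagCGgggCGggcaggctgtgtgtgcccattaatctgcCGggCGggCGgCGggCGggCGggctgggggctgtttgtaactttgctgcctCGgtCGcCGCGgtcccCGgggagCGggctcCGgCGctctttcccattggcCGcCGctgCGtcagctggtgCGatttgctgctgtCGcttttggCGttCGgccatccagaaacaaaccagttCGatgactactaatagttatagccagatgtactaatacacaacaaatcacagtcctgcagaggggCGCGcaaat
Hoxa7: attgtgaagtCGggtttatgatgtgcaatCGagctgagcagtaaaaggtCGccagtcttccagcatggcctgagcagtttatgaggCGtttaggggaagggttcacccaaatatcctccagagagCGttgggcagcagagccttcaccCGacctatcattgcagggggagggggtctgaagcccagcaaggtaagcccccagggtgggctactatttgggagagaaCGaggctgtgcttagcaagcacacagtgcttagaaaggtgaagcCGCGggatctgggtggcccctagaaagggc
Hoxa9: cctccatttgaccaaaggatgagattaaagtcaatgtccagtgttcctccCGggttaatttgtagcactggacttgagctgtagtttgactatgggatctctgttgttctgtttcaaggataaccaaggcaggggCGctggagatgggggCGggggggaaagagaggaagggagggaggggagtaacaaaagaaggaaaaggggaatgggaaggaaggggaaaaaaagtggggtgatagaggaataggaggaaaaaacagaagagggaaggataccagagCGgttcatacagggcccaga
Hoxa5 and Hoxa6 have 29 and 26 CpG dinucleotides in these 300 bases, Hoxa7 has 9 and Hoxa9 has 4, where the median of 32851 mouse promoters is 7. The 3 lower genes thus differ among themselves in CpG count. Of 6 short motifs searched on both strands, CCAAT was found in the Hoxa5 and Hoxa6 windows, and in 37.4% of all promoters. AGGTCA, a half-site of nuclear receptors, was found in the Hoxa5 window, 41 bases after the start site, and in 16.3% of all promoters. The other motifs were in none of the 4 windows. They were TGATTNAT, present in 3.22% of all promoters, the homeodomain core TAATTA, present in 5.29%, the posterior Hox motif TTTATNG, present in 10.9%, and the TATA box TATAAA, present in 13.6%. None of the 6 was found in all 3 windows of the lower genes. RefSeq windows matched 22 of the 39 Hox genes by symbol.

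**Figure D2:**
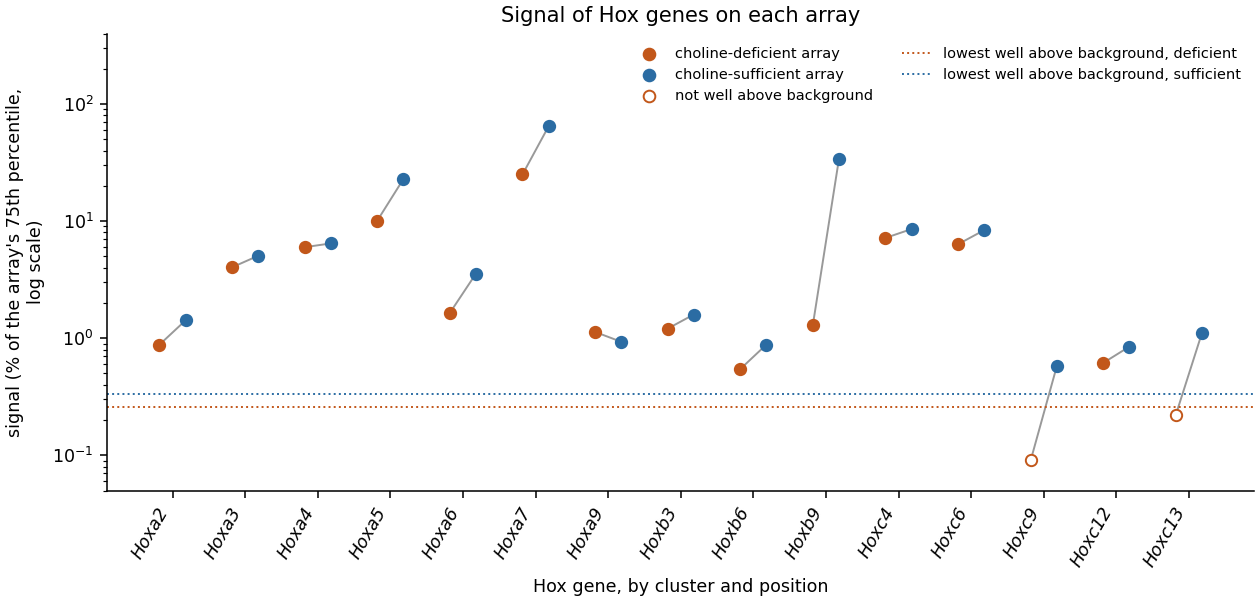
Signal of the Hox genes named in the text that were well above background on at least 1 array, as a percentage of the array's 75th percentile on a logarithmic axis, with the choline-deficient array (orange) left of the choline-sufficient array (blue). Open circles were not well above background, dotted lines mark the lowest signal well above background on each array, and heights of different genes are not comparable. Every pair but that of Hoxa9 slopes up towards the choline-sufficient array, and Hoxb9 is the steepest of the genes measured on both arrays.

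In the Hoxb cluster 3 of 10 genes were measured. Hoxb9, which patterns the ribs and, with its paralogs, the mammary gland, had 1.30% on the choline-deficient array, against 34.2% on the choline-sufficient array. It was 26.2-fold lower, a difference of -4.71 ± 0.21, and was the 9th lowest of all 19818 measured genes. This is the value that led to the choice of the family. It rests on 1 spot of 1 probe, at mm9 chr11:96137748-96137807 on the plus strand. The longest run of letters that this 60-base probe shares with a probe of another gene is 14 bases. The choline-deficient signal was still above 0.258%, the lowest signal called well above background on that array. With normexp background correction, which lifts dim signals, the difference was -3.07.

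The other measured Hoxb genes were closer between the arrays. Hoxb3, which shapes the hindbrain and pharyngeal arches, had 1.21% without choline and 1.59% with choline (-0.40 ± 0.24). A second Hoxb3 probe, for the same transcript, was well above background on neither array, at 0.0598% without choline and 0.0744% with choline. Hoxb6, which is used in the thoracic region and in limb buds, had 0.545% without choline and 0.882% with choline (-0.70 ± 0.29). From Hoxb6 to Hoxb9 the difference dropped by 4.02 ± 0.36. The genes on both sides of Hoxb9 in the cluster, Hoxb8 and Hoxb13, were well above background on neither array, with signals of 0.0770% and 0.0746% without choline and 0.0922% and 0.0932% with choline. Hoxb9 therefore stood alone in its stretch of the cluster on this array, with no measured direct neighbour to set it against. Hoxb1, Hoxb2, Hoxb4, Hoxb5 and Hoxb7 were also well above background on neither array.

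In the Hoxc cluster 3 of 9 genes were measured and all were lower by less than 2-fold. Hoxc4 had 7.18% without choline and 8.55% with choline (-0.25 ± 0.20). Hoxc6, a gene of the thoracic region, had 6.35% without choline and 8.37% with choline (-0.40 ± 0.20). Hoxc12, from the tail end of the cluster, had 0.615% without choline and 0.848% with choline (-0.46 ± 0.30). Their steps from one to the next were -0.15 and -0.06, both within the error. Hoxc9, which sets the identity of thoracic motor neurons, and Hoxc13, needed for hair and nails, were well above background only on the choline-sufficient array. Hoxc9 had 0.0906% without choline and 0.577% with choline, at least 2.23-fold lower. Hoxc13 had 0.222% without choline and 1.11% with choline, at least 4.31-fold lower. For both bounds the choline-deficient level was taken at the lowest signal well above background on that array, and both signals were dim. Hoxc5, not called on either array, had 0.317% without choline and 0.399% with choline, above the lowest called signals of those arrays. All fold bounds given here are thus approximate. Hoxc5, Hoxc8, Hoxc10 and Hoxc11 were well above background on neither array.

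In the Hoxd cluster, which is known for digit and limb patterning, 0 of 9 genes were well above background on either array. These were Hoxd1, Hoxd3, Hoxd4, Hoxd8, Hoxd9, Hoxd10, Hoxd11, Hoxd12 and Hoxd13, and no difference is given for them. On the choline-deficient array their probes had between 0.0559% and 0.0998%. On the choline-sufficient array they had between 0.0723% and 0.348%, the highest being 1 of the 2 Hoxd11 probes.

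**Figure D3:**
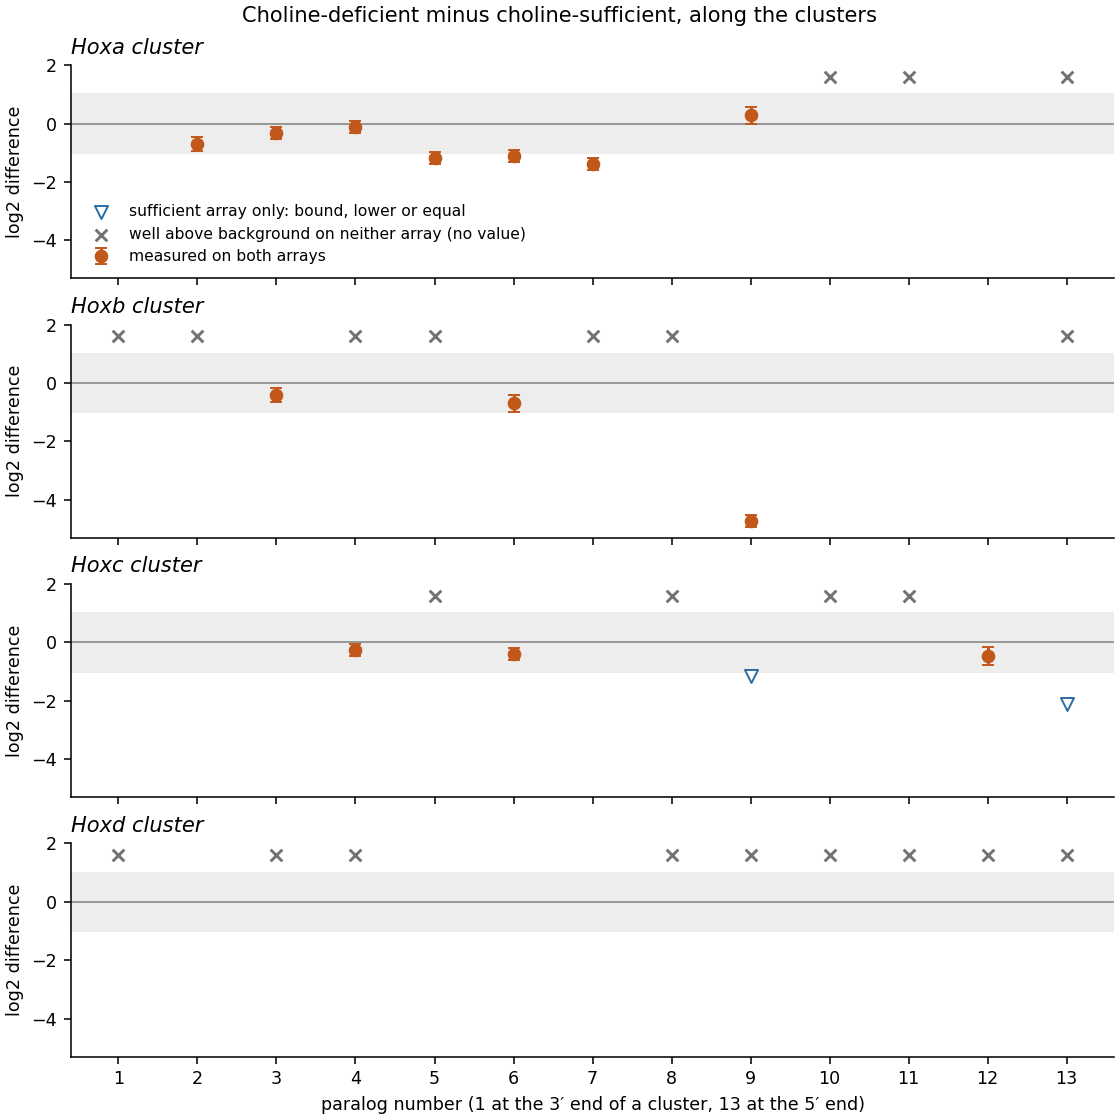
Log2 difference, choline-deficient minus choline-sufficient, of the Hox genes named in the text, by paralog number in each cluster, with scanner error bars for genes measured on both arrays (orange), bounds for genes seen only on the choline-sufficient array (open triangles) and crosses at a fixed height for genes with no value. The grey band is 2-fold. Hoxa5 to Hoxa7 sit together below the band, Hoxb9 lies at -4.71, and the Hoxd cluster has no value.

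The genes were also read by position rather than by cluster. Over the whole array 66.9% of genes were measured, and 3.88% of all measured genes were at least 2-fold lower. Of 12 genes with paralog numbers 1 to 4, 6 were measured and 0 were at least 2-fold lower, with a median of -0.35. Of 11 genes numbered 5 to 8, 5 were measured, with a median of -1.12, and 3 were at least 2-fold lower. These 3 are again Hoxa5, Hoxa6 and Hoxa7 of the Hoxa cluster. Hoxa5 and Hoxa6 fell short of 2-fold with spike-in scaling and after normexp. Of 16 genes numbered 9 to 13, 3 were measured, and their differences of 0.28, -0.46 and -4.71 had no common size. Both genes seen only on the choline-sufficient array were in this last group. The paralogs numbered 6 were all measured where present, and all were lower. Hoxa6, Hoxb6 and Hoxc6 had differences of -1.12 ± 0.21, -0.70 ± 0.29 and -0.40 ± 0.20. After normexp these were -0.62, -0.36 and -0.37. The paralogs numbered 9 did not move as 1 unit. They ranged from 0.28 in Hoxa9 over a bound of at least 2.23-fold lower in Hoxc9 to 26.2-fold lower in Hoxb9. Hoxd9 was well above background on neither array.

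Long noncoding transcripts lie between and across the Hox genes. Of 8 on the array, Hoxaas2, Hoxaas3, Hoxa11os and Haglr were measured. Hoxaas3, an antisense transcript whose RefSeq gene overlaps Hoxa3, Hoxa5 and Hoxa6, had 5.86% on the choline-deficient array and 12.7% on the choline-sufficient array, 2.16-fold lower (-1.11 ± 0.20). Its difference was of the size of those of Hoxa5, Hoxa6 and Hoxa7, and ranged from -1.23 to -0.84 over 10 settings. Hoxaas2, which overlaps Hoxa3 between Hoxa2 and Hoxa4, had 1.58% without choline and 1.38% with choline (0.19 ± 0.23). The difference of Hoxaas2 was smaller than its error. Hoxa11os had 1.20% without choline and 1.70% with choline (-0.50 ± 0.23), although Hoxa11 itself was not well above background. Haglr, which lies between Hoxd4 and Hoxd1, had 4.37% without choline and 6.07% with choline (-0.47 ± 0.21), with Hoxd genes on both sides not well above background. Hottip, Hoxb5os, Hoxd3os1 and 5730596B20Rik were well above background on neither array.

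Among 21 genes beside the clusters 19 were measured and 0 were at least 2-fold apart, with a median of -0.22. Over all measured genes 11.6% were at least 2-fold apart. Next to the Hoxa cluster, Skap2 differed by 0.12 ± 0.20 on the 3' side and Hibadh by -0.31 ± 0.20 on the Hoxa13 side. Of the 19, those furthest apart were Snx10, on the 3' side of the Hoxa cluster, at -0.93 ± 0.20, and Smug1, on the Hoxc4 side, at -0.90 ± 0.20. With scaling to the array medians 2 of the 19 passed 2-fold. Evx1, a homeobox gene beside Hoxa13, was well above background on neither array, whereas Evx2, beside Hoxd13, had 6.97% without choline and 8.09% with choline. Skap1, on the Hoxb1 side, was seen only on the choline-deficient array, at least 4.20-fold higher.

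Of 9 TALE homeobox genes, whose products bind DNA together with Hox proteins, 0 were at least 2-fold apart and the median was 0.21. The share of all measured genes at least 2-fold apart, for this list and the next, was 11.6%. Meis1 had 584% on the choline-deficient array, against 319% on the choline-sufficient array (0.87 ± 0.20), and Meis2 differed by 0.67 ± 0.20. Meis1 passed 2-fold with scaling to spike-in probes. Meis3 ran the other way, at -0.52 ± 0.21. Of 30 Polycomb genes 0 were at least 2-fold apart and the median was -0.22. The core genes of Polycomb repressive complex 2 had differences of 0.03 in Ezh2, the methyltransferase, -0.22 in Eed and -0.33 in Suz12, each ± 0.20. In complex 1, Bmi1 was at -0.77 ± 0.20, Kdm2b at -0.75 ± 0.20 and Ring1 at 0.67 ± 0.20.

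Of 17 Trithorax-type and H3K27 demethylase genes, 1 was at least 2-fold lower, 0 were higher and the median was -0.23. By 2-fold or more, 3.88% of all measured genes were lower and 7.67% higher. The 1 lower gene of the list was Kdm6a, which encodes an X-linked demethylase that removes the Polycomb mark. It had 16.6% on the choline-deficient array, against 40.2% on the choline-sufficient array, 2.42-fold lower (-1.28 ± 0.20). Kdm6b, of the same enzyme family, differed by -0.23 ± 0.20, and the MLL1 gene Kmt2a by -0.23 ± 0.21. Apart from Kdm6a, every measured gene of these 2 chromatin lists was within 2-fold. The medians turned to 0.05 for Polycomb and 0.04 for Trithorax with scaling to spike-in probes.

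Among the inducers of Hox genes, a list of 24 Cdx factors and genes of retinoic acid signalling, 18 were measured, 6 were higher by 2-fold or more, 1 was lower and the median was 0.59. Over all measured genes 7.67% were higher and 3.88% lower. Dhrs3, a retinaldehyde reductase gene that retinoic acid induces, had 131% on the choline-deficient array, 6.53-fold higher than on the choline-sufficient array (2.71 ± 0.20). Rarb, a retinoic acid receptor gene and itself a target of the signal, had 7.78% without choline and 1.40% with choline, 5.54-fold higher (2.47 ± 0.28), with a lowest value of 1.07 over 10 settings. Egr2, a hindbrain regulator that activates Hoxa2 and Hoxb2 and is also an immediate early gene, was 5.33-fold higher. In these arrays Hoxa2 was lower, on 1 dim probe, and Hoxb2 was not well above background. A link of either to Egr2 was not tested. The gene of the retinol uptake receptor Stra6 was 2.36-fold higher and Cdx1 2.20-fold higher, but these differences of 1.24 and 1.14 were 0.03 and 0.14 after normexp. Cyp26b1, whose enzyme breaks down retinoic acid, had 2.88% without choline and 12.4% with choline, 4.31-fold lower (-2.11 ± 0.21), with a weakest value of -1.42 over 9 settings. Cdx2, Cdx4, Aldh1a2 and Cyp26c1 were well above background on neither array. Crabp1 and Aldh1a3 were seen only on the choline-deficient array, at least 5.35-fold and 1.83-fold higher. After normexp the median of the list was 0.07, with 3 genes higher.

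**Figure D4:**
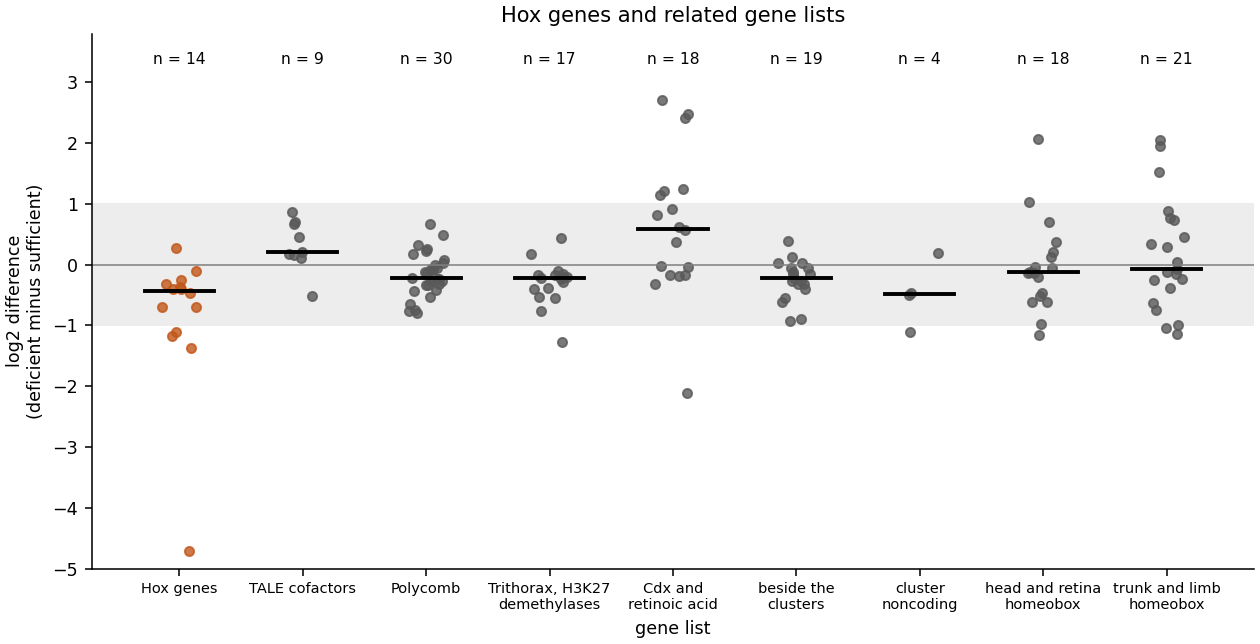
Log2 difference, choline-deficient minus choline-sufficient, of each measured gene (points) in the Hox family (orange) and in 8 related lists (grey), with medians as black bars, the number of genes above and 2-fold as a grey band. The Cdx and retinoic acid list spreads from -2.11 to 2.71, while the Polycomb genes and the genes beside the clusters stay inside the band.

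Homeobox genes outside the clusters are set here beside 7.67% higher and 3.88% lower by 2-fold or more over all measured genes. In the head and retina list 18 of 28 were measured, 2 were at least 2-fold higher, 1 was lower and the median was -0.13. Dlx5, a gene of the forebrain, jaw and bone, had 20.1% without choline and 4.82% with choline, 4.17-fold higher, and its neighbour Dlx6 was 2.03-fold higher, but at -0.03 after normexp. Lhx1 was 2.23-fold lower, with its 2 probes at -1.60 and -0.71, and its weakest value over 9 settings was -0.63. In the trunk and limb list 21 of 37 were measured, 3 were higher, 2 lower and the median was -0.07. Prrx2 and Prrx1, genes of limb and body wall mesenchyme, were 4.15-fold and 3.86-fold higher. En2 and Irx2 were 2.21-fold and 2.07-fold lower, but with spike-in scaling and after normexp 0 genes of the list were lower by 2-fold, and the weakest values of En2 and Irx2 were -0.59 and -0.78. With scaling to spike-in probes the medians turned to 0.14 and 0.20. The same scaling turned the median of the genes beside the clusters to 0.06.

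The label of the line was set against markers. Of 25 photoreceptor genes 12 were measured, where 66.9% of all genes of the array were measured. Opn1sw, Crx, Nrl, Nr2e3 and Rcvrn were among the 9 well above background on neither array. Among the 12 measured, the cone transducin gene Gnat2 had 22.7% without choline and 15.4% with choline, and the disc rim gene Rom1 had 163% without choline and 197% with choline. The cone genes Opn1mw and Arr3 were measured too. The markers thus bear out the label only in part. Of the 12, 1 was higher without choline by 2-fold or more and 0 were lower, with a median difference of 0.43. Of the list, 3 genes were seen only on the choline-deficient array and 1 only on the choline-sufficient array. The summed signal of the list was 272% on the choline-deficient array and 299% on the choline-sufficient array, and Rom1 gave the largest part of both sums. Of 17 fibroblast and mesenchymal genes 16 were measured and 11 were higher by 2-fold or more without choline, with a median difference of 1.87. Their summed signal was 20487% without choline and 9126% with choline. Of these sums Col1a2 held 6235% and 731% and Fn1 held 6097% and 5994%, in each pair without and then with choline. Lum was well above background on neither array. Of 10 Muller glia and astrocyte genes 7 were measured and 3 were higher and 1 lower (summed signal 1310% without choline and 312% with choline, of which Dkk3 alone gave 1025% without choline and 112% with choline). Of 10 neuron genes 7 were measured, with 2 higher and 1 lower (151% without choline and 82.2% with choline), and of 7 retinal pigment epithelium genes 3 were measured, with 0 past 2-fold (102% without choline and 97.6% with choline). The part of these other marker lists was not tested either.

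**Figure D5:**
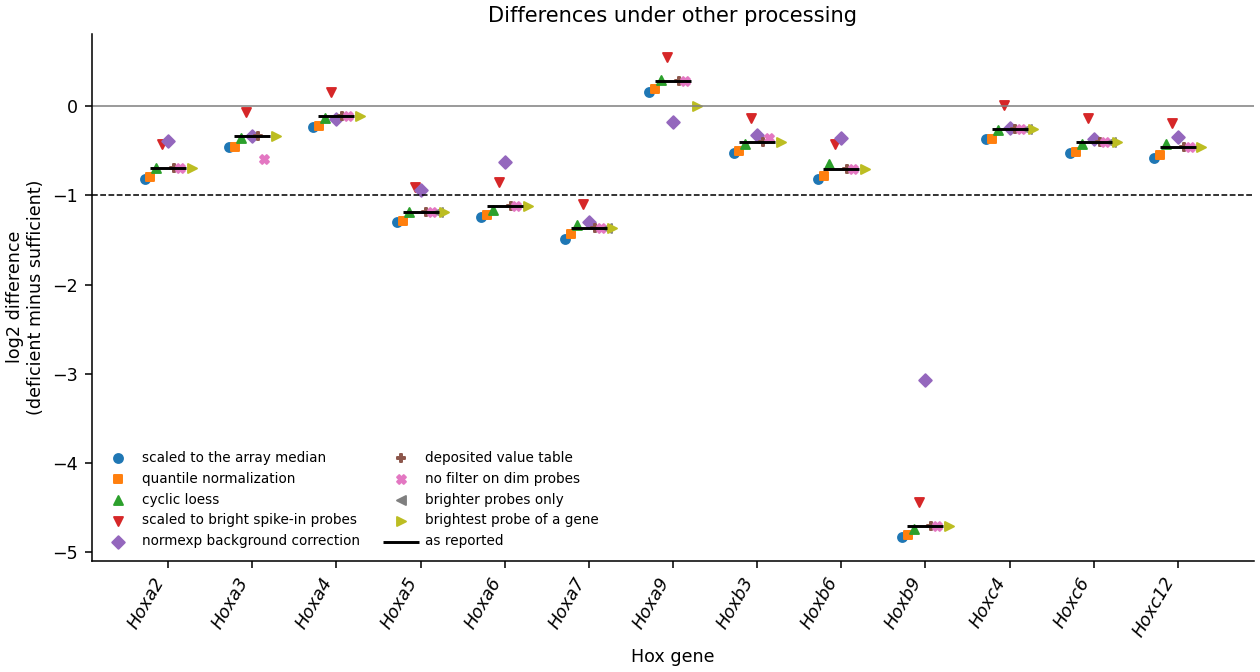
Log2 difference of the measured Hox genes named in the text, choline-deficient minus choline-sufficient, as reported (black dashes) and under 9 other ways of processing (coloured symbols), with 2-fold lower as a dashed line. Hoxa7 and Hoxb9 stay at or below the line under every setting that measured them, and Hoxa5 and Hoxa6 cross it under 2.

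Hoxa7 was between -1.49 and -1.10 over its 10 settings and Hoxb9 between -4.83 and -3.07 over its 9. Hoxa5 ranged from -1.30 to -0.91 and Hoxa6 from -1.24 to -0.62, and each was short of 2-fold with spike-in scaling and after normexp.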

How the data were processed

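Cy3-labelled RNA was hybridised to 1 array per condition, both on 1 slide, so that array position and condition cannot be told apart. The deposited scanner files hold intensity values per spot made by the authors. The submitters' processing notes name Agilent Feature Extraction 12.1.1.1. Per the file headers, processed signals are background-subtracted and detrended within an array, with no scaling between arrays. The deposited value table holds a ratio, proportional within each array to the processed signal, and genes were not centred. Column medians were 0.0358 (choline-deficient) and 0.0337 (choline-sufficient). Its making is not stated in the labels.

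Log2 signals were set relative to each array's 75th percentile (1609 and 1280). Control and outlier spots were left out (92 and 86 outliers). Well above background were 70.7% and 68.5% of 43020 spots, and 0 spots were saturated. Spots, then measured probes of a gene, were averaged, giving 19818 genes from 26463 of 39426 probes. Python 3.11.15, numpy 2.4.6, pandas 2.3.3, R 4.3.3 and limma 3.58.1 were used. The scripts were tested on simulated data. With 1 array per group no test was possible, and the number of arrays limits the precision. Family, lists and alternatives were chosen with earlier results of these data known. Of 255 list entries 1 was a second name of another, and 243 of the remaining 254 were on the array. The rule names all Hox genes. Of each list, up to 6 members past 2-fold, by size, and those that a result turns on by role are named. Others within 2-fold, and Cdx1, were named after their values were seen. Some genes that the rule names are not reported here, and counts and medians include them. Gene names are those of the files, and the RefSeq table (GRCm38.p6) gave the same symbol for 44 of 45 Hox probes, the accession of the other being absent from it. Probe positions are on mm9, and exon annotation was not used here.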

Additional observations from a re-analysis of the deposited data

How the results depend on the processing

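No paired analysis was possible because each condition has 1 array. No replicate could be left out. Hoxb9, Hoxa7 and the median of the measured Hox genes kept their direction under the alternatives that gave them a value. The count of 4 members at least 2-fold lower was 2 with spike-in scaling, 2 after normexp, 2 with the brighter probes, 9 with no filter on dim probes and 1 at 3-fold. In the Hoxa cluster the count of 3 was 1 with spike-in scaling and after normexp and 0 at 3-fold. In the Hoxb cluster the count of 1 was 2 at 1.5-fold and 0 with the brighter probes, which left Hoxb9 out, and in the Hoxc cluster the count of 0 was 2 with no filter. With no filter 39 genes had a value, and with the brighter probes 5. With spike-in scaling the median of -0.43 was -0.16, that of Hoxa went to -0.26, Hoxb -0.42 and Hoxc -0.13. The Hoxb median of -0.70 was -0.36 after normexp and -0.35 with no filter, and the Hoxa median of -0.53 was -1.18 with the brighter probes. Hoxa4 and Hoxc4 were above 0 with spike-in scaling (0.16 and 0.02), and Hoxa9 was -0.17 after normexp. Without the filter, Hoxd11 and Hoxd13 passed 2-fold at -1.24 ± 1.79 and -1.33 ± 1.62. Low signal limits these values: 0.258% and 0.333% of the 75th percentile were the lowest called well above background on the choline-deficient and choline-sufficient array.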
